A study of Ovis aries with 6 samples.

Results

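The genes described here are 5 innate immune receptors and effectors measured in the skin of Aohan fine wool sheep. They are the receptors TNFRSF1A and TLR1, the RNA-binding protein ZFP36, the chemokine CXCL10 and the cytotoxic granule protein GNLY. They were chosen by the difference in signal between body side and groin skin, since they come from the study's lists of genes that differed between these areas. Their values for that difference are therefore given as a description with no test. The 5 are among 476 genes that could be named on the array through RefSeq accessions. The rule covers 6 probes, with 1 probe each for TNFRSF1A, ZFP36, TLR1 and CXCL10 and 2 probes for GNLY. A further ZFP36 probe, not in those lists, is described beside them, which makes 7 probes in all.

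Both skin areas came from the same animals, a ram and ewes aged 16 months that shared a father and were reared in pens. Body side skin bears wool and groin skin does not. Cy3-labelled RNA of full-thickness skin was read on Agilent sheep arrays with a single colour, 3 per area, and which arrays share an animal or come from the ram is not stated. A biopsy of this kind holds epidermis, follicles, glands, dermis, vessels and immune cells together, so fewer cells of a type and less RNA per cell cannot be told apart.

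Innate immunity in skin starts with receptors that recognise microbial molecules or the cytokines of neighbouring cells. TLR1 is a Toll-like receptor that pairs with TLR2 to bind bacterial lipopeptides, and signals through the adaptor MYD88 and the kinase IRAK4. TNFRSF1A is the main receptor for tumour necrosis factor. ZFP36, also called tristetraprolin, binds AU-rich elements of TNF and other cytokine transcripts and promotes their decay. CXCL10 is a chemokine induced by interferons that attracts T and NK cells through the receptor CXCR3. GNLY is a pore-forming antimicrobial protein stored in the granules of cytotoxic T cells and NK cells.

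Each array held 15208 non-control spots for 15008 different probes. On groin replicates 1, 2 and 3, 92.3%, 79.6% and 79.9% of spots were well above background. The share ran from 74.1% to 76.0% on the body side arrays. The median signal was 180 to 193 in groin and 97.5 to 130 in body side skin, so body side arrays were dimmer before normalization, and no spot was saturated. Correlations between arrays lay between 0.942 and 0.996. After quantile normalization, limma tested 13929 probes, and the word called stands for a difference of at least 2-fold together with a Benjamini-Hochberg adjusted p under 0.05. All differences are body side minus groin on the log2 scale, ± is the SD of 3 arrays, and the number of arrays limits the precision.

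Of the 6 probes, 3 were called, those of TLR1 and CXCL10 and 1 of the 2 for GNLY, against 8.40% of all probes tested. In all 6 the arrays of the areas did not overlap, 4 of them higher and 2 lower in body side skin, as did 43.3% of all probes in either direction. Because the genes were picked for this difference, nothing is read from either count. The probe nearest to 2-fold on the inside was that of TLR1 at 2.15-fold, and the ZFP36 probe outside the lists had a difference of 1.22-fold.

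**Figure D1:**
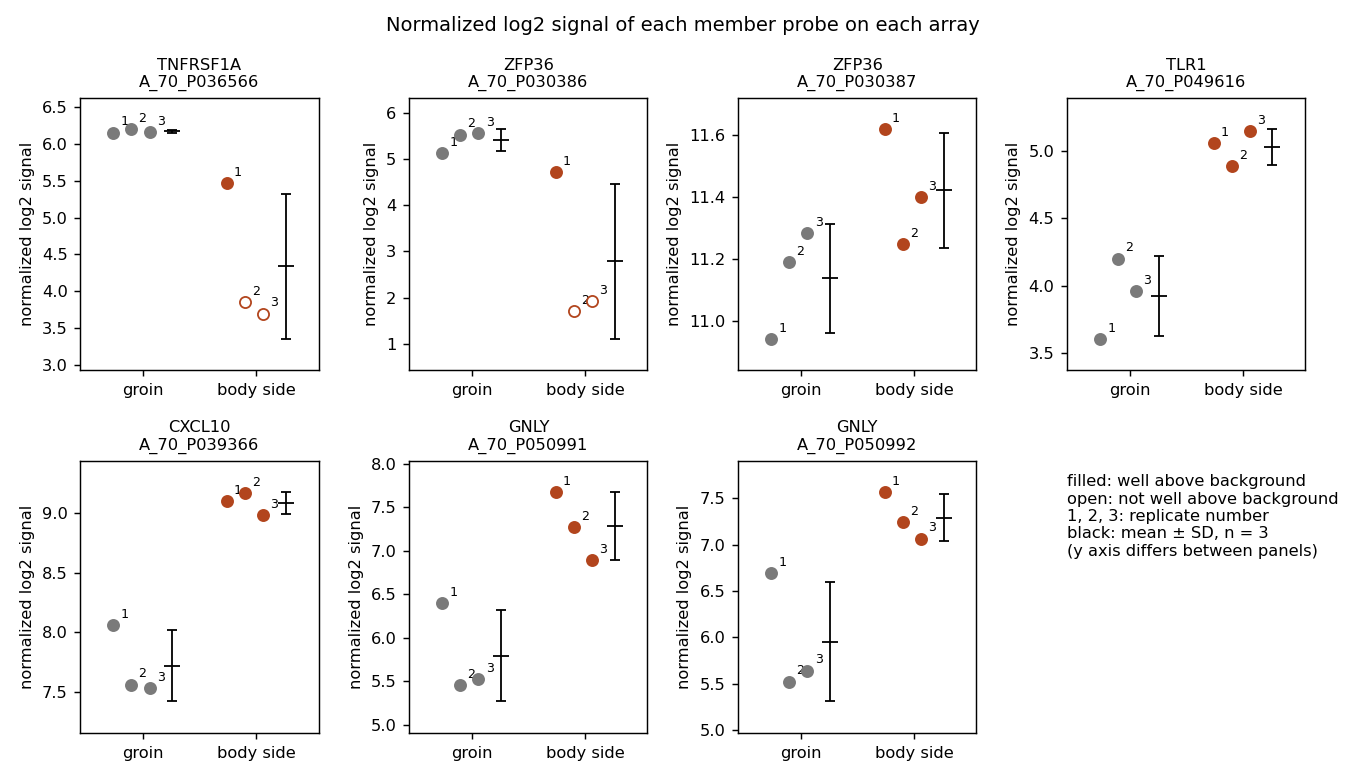
Normalized log2 signal (y axis, a different range in each panel) of the 7 probes on the 3 groin arrays (grey) and the 3 body side arrays (red), with replicate numbers and the mean ± SD in black. Open circles mark arrays on which the probe was not well above background, which are body side replicates 2 and 3 for TNFRSF1A and for the first ZFP36 probe.

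Among the receptors, TNFRSF1A was lower in body side skin. Its probe (A_70_P036566) had normalized log2 signals of 6.15, 6.20 and 6.16 on groin replicates 1, 2 and 3 and of 5.47, 3.85 and 3.69 on body side replicates 1, 2 and 3. The groin arrays lay close together and above every body side array, while body side replicate 1 stood apart from the other two and nearer to groin. As deposited, the signal intensities were 95.5, 99.3 and 93.7 in groin and 39.0, 9.04 and 9.48 in body side skin. Detection well above background held for the 3 groin arrays and, in body side skin, for replicate 1 alone. With means of 6.17 ± 0.024 in groin and 4.34 ± 0.99 in body side skin, the fitted difference was -1.84 (standard error 0.48). Because the body side arrays were partly at background, the difference is given as at least 3.27-fold lower. This sets the groin mean against the higher, per array, of the body side value and the dimmest value well above background. The limit allows for dim signals and not for the spread between arrays. With an array left out it lay between 2.64-fold and 4.64-fold.

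TLR1 was higher in body side skin, from a faint signal. The TLR1 probe (A_70_P049616) gave normalized log2 signals of 3.61, 4.20 and 3.96 on groin replicates 1, 2 and 3 and of 5.05, 4.88 and 5.14 on the body side replicates. Every body side array lay above every groin array, and the probe was well above background on all 6. The difference was 1.10 (standard error, SE, 0.20), or 2.15-fold. Before normalization the areas were not separated for this gene. Its deposited intensities were 25.9, 22.5 and 17.5 in groin and 28.2, 18.6 and 26.8 in body side skin, so that body side replicate 2 lay below groin replicates 1 and 2.

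ZFP36 was measured by 2 probes that gave different pictures. Probe A_70_P030386, the one in the study's lists, had normalized log2 signals of 5.13, 5.53 and 5.55 in groin and of 4.71, 1.72 and 1.92 in body side skin, for replicates 1, 2 and 3 in each. As with TNFRSF1A, only body side replicate 1 was well above background in that area, and the other two were far below it. Its intensities were 51.6, 62.2 and 60.6 in groin and 21.7, 2.08 and 3.27 in body side skin. The fitted difference was -2.62 (standard error 0.80), with a body side SD of 1.67, and the difference that the dim arrays allow is at least 2.29-fold lower. With an array left out this limit lay between 2.02-fold and 2.72-fold.

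The other ZFP36 probe (A_70_P030387) was well above background on all 6 arrays, with deposited intensities of 2152, 2592 and 2733 in groin and 2831, 2186 and 2615 in body side skin. Its normalized log2 signals were 10.94, 11.19 and 11.28 in groin and 11.62, 11.25 and 11.40 in body side skin. The areas overlapped, since body side replicate 2 lay below groin replicate 3. Its difference of 0.28 (standard error 0.17) has the opposite sign to that of the first probe. Both probes carry the accession of the same transcript, and which of them follows the ZFP36 transcript in this tissue was not tested. A direction for the gene is therefore not given.

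CXCL10 was higher in body side skin. Its probe (A_70_P039366), the only one of these printed in several copies, had normalized log2 signals of 8.06, 7.56 and 7.53 on groin replicates 1, 2 and 3 and of 9.11, 9.17 and 8.99 on the body side replicates. The body side arrays were close together (9.09 ± 0.093), and the groin arrays, at 7.72 ± 0.30, all lay below them. The difference was 1.37 (standard error 0.19), or 2.59-fold.

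The 5 spots of the CXCL10 probe on each array show how well a single array measured the gene. Their signals ran from 298 to 368, 228 to 281 and 218 to 280 on groin replicates 1, 2 and 3. On body side replicates 1, 2 and 3 they ran from 461 to 550, 397 to 461 and 381 to 441. Even before normalization, every body side spot was thus brighter than every groin spot. The SD of the 5 spots on the log2 scale was between 0.077 and 0.129, below the SD of 0.30 among the groin arrays. Spots of an array share its RNA and are not replicates of the area.

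GNLY was also higher in body side skin on both of its probes. Probe A_70_P050991 had normalized log2 signals of 6.40, 5.46 and 5.52 in groin and 7.67, 7.27 and 6.89 in body side skin, for replicates 1, 2 and 3. Probe A_70_P050992 had 6.69, 5.52 and 5.64 in groin and 7.57, 7.24 and 7.06 in body side skin. On both probes replicate 1 was the highest array of its area, yet groin replicate 1 stayed below every body side array. The differences were 1.49 (standard error 0.33) and 1.34 (standard error 0.35), or 2.80-fold and 2.53-fold, and only the first was called.

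How large these differences were depended on how the arrays were scaled. The median difference over all tested probes was 0.088 after quantile normalization, -0.029 when each array was set to its 75th percentile, and -0.47 with no scaling. Relative to these medians, CXCL10 lay 1.28 above after quantile normalization and 1.17 above in the other two, and the GNLY probes lay 1.40 and 1.25 above after quantile normalization and 1.16 and 1.03 above in the others. The 75th percentile scaling shifts each array by a constant, so its values relative to the median equal those with no scaling by construction. TLR1 moved most, from 1.02 above to 0.63 above. TNFRSF1A went from -1.92 to -2.21 and the first ZFP36 probe from -2.71 to -2.98 relative to the median.

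Overlap between areas also changed with the scaling. CXCL10, TNFRSF1A and the first ZFP36 probe were separated in all 3. TLR1 overlapped under 75th percentile scaling, where its difference was 0.60, and with no scaling, where it was 0.15. The GNLY probe A_70_P050991 overlapped with no scaling alone, and A_70_P050992 with no scaling and under the 75th percentile. The second ZFP36 probe was separated only under the 75th percentile, at 0.47. Under that scaling 1 of the 6 probes was called, that of CXCL10, where 8.22% of all probes were, and over the whole array 276 probes were called higher and 869 lower, against 491 and 679 after quantile normalization.

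**Figure D2:**
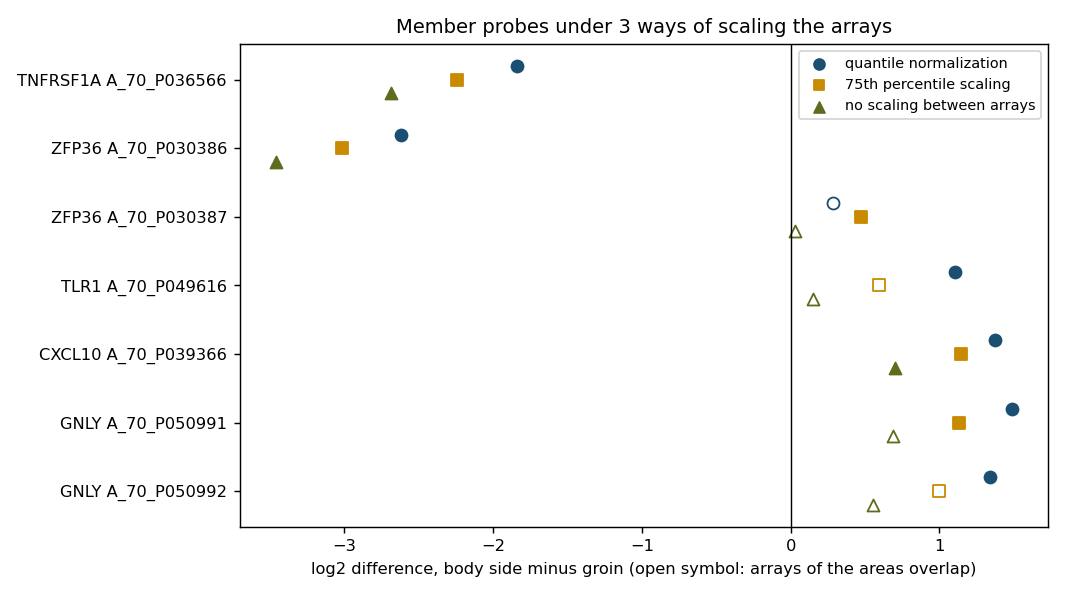
Log2 difference (x axis, body side minus groin) of the 7 probes after quantile normalization (circles), 75th percentile scaling (squares) and no scaling between arrays (triangles); open symbols mark probes whose areas overlap. TNFRSF1A and the first ZFP36 probe lie left of 0 and the other 5 probes right of it in all 3, and the TLR1 difference shrinks from 1.10 to 0.15.

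Single arrays also shaped the values. Without body side replicate 1, the TNFRSF1A difference was -2.40 and that of the first ZFP36 probe -3.58, both were called, and 5 of the 6 probes were called in all, where 21.3% of all probes were. None of the 6 was called without groin replicate 2, groin replicate 3, body side replicate 2 or body side replicate 3, but over the whole array those fits called only 0.101%, 0.0790%, 0.323% and 0.460% of probes, so the count of 0 says nothing about these genes. No difference of the 7 probes changed sign when any array was left out. CXCL10 then lay between 1.28 and 1.54, TLR1 between 0.95 and 1.24, and the GNLY probes between 1.29 and 1.79 and between 1.12 and 1.71.

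The spots of the 6 arrays lay in 3 columns and 2 rows by their positions in 1 scan, and only rows 1 and 2 and column 2 held both areas. Within column 2, which holds groin replicate 3 and body side replicate 1, the difference was -0.69 for TNFRSF1A, -0.84 for the first ZFP36 probe, 1.09 for TLR1, 1.58 for CXCL10 and 2.15 and 1.92 for the GNLY probes. Within rows 1 and 2 it was -2.31 and -1.62 for TNFRSF1A, -3.63 and -2.21 for the first ZFP36 probe and 1.10 and 0.90 for TLR1. For CXCL10 the row values were 1.38 and 1.49, and for the GNLY probes 1.31 and 1.83 (A_70_P050991) and 1.08 and 1.79 (A_70_P050992). The direction was thus kept in each, on single arrays per area in some, and the part of slide position in the results was not tested. As a block in the fit, row left 0 of the 6 probes called and so did column, in fits that called 52 probes (0.373%) and 0 probes over the whole array.

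Most probes of other genes in the pathway of TLR1 had differences below 0. The Toll-like receptor list of 21 genes had 11 named genes and 19 tested probes, and limma called 0 of them. At an unadjusted p under 0.05, 2 of the 19 were higher and 6 lower, where 22.0% of all probes were higher and 15.7% lower, 37.7% together. Its median difference was -0.27, and 13 of the 19 probes had a fitted value below 0. Over all tested probes the median was 0.088, and 55.2% had a fitted value above 0. In 8 of the 19 probes every body side array was lower, against 17.7% of all probes, and in 2 every body side array was higher, against 25.6%. With 75th percentile scaling the list's median was -0.60 and 3 of its probes were called lower, 1 each of TLR4, TLR6 and IRAK4, against 6.24% of all probes.

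TLR6, the close relative of TLR1 that also pairs with TLR2, had 3 probes whose body side arrays all lay below groin. The TLR6 probe A_70_P067976 had normalized log2 signals of 6.42, 6.57 and 6.53 in groin and 5.40, 5.70 and 5.81 in body side skin, a difference of -0.87 (standard error 0.17, adjusted p = 0.029 from limma) that fell short of 2-fold. The other two TLR6 probes had differences of -0.49 (adjusted p = 0.085 from limma) and -0.60 (adjusted p = 0.051 from limma). TLR1, measured on the same arrays, thus had a positive difference where TLR6 had negative ones. The genes are similar in sequence, and whether a probe also binds the transcript of the other was not tested.

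TLR2, the shared partner, had differences of -0.36 (standard error 0.18) and -0.75 (standard error 0.26) on its 2 probes, and the areas overlapped on both (adjusted p = 0.193 and 0.096 from limma). TLR4, the receptor for bacterial lipopolysaccharide, had 7.35, 7.52 and 7.60 in groin and 6.91, 6.88 and 6.12 in body side skin, which did not overlap (difference -0.85, standard error 0.25, adjusted p = 0.067 from limma). Its co-receptor CD14 had a difference of -0.27 on both probes, with no overlap and adjusted p of 0.263 and 0.209 from limma.

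The adaptor MYD88 had a difference of 0.54 (SE 0.53, limma adjusted p = 0.491), with a high body side replicate 3, at 7.25 against 5.43 and 5.34 on the other body side arrays, without which it was -0.083. One probe of the kinase IRAK4 (A_70_P041036) had a difference of -0.88 (SE 0.22, limma adjusted p = 0.049) and the other had one of -0.30. TLR7, which senses single-stranded RNA, was chosen after its values were seen, as were IRAK4 and the genes so marked below. Its probe A_70_P049646 had 5.29, 5.20 and 5.24 in groin and 6.04, 6.15 and 6.28 in body side skin (difference 0.91, standard error 0.14, adjusted p = 0.023 from limma), under 2-fold and so not called. Its other probe had a difference of 0.062, and -0.49 under 75th percentile scaling, so the gene's probes disagreed.

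**Figure D3:**
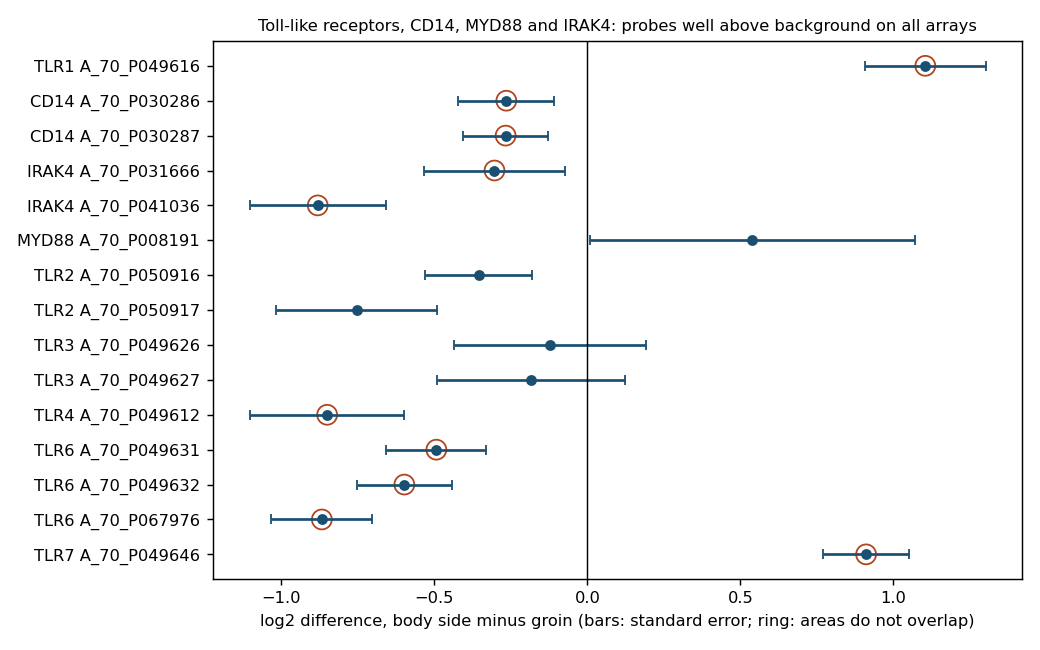
Log2 difference (x axis, body side minus groin; bars are the standard error from limma) of TLR1 and of the probes of other Toll-like receptors, CD14, MYD88 and IRAK4 that were well above background on all 6 arrays; rings mark probes whose areas did not overlap. TLR1 at 1.10, a TLR7 probe at 0.91 and MYD88 at 0.54 lie on the right, and the TLR2, TLR3, TLR4, TLR6, CD14 and IRAK4 probes on the left of 0.

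Of the TNF receptor list, only TNF itself and NFKBIA, the inhibitor of NF-kappaB that TNF signalling induces, were named on the array out of 24 genes. Neither was called, and 1 had an unadjusted p under 0.05, as did 37.7% of all probes. TNF, the ligand of TNFRSF1A and a transcript that ZFP36 binds, had normalized log2 signals of 8.01, 8.22 and 8.28 in groin and 8.29, 9.22 and 9.60 in body side skin. Body side replicates 2 and 3 were high and replicate 1 was level with groin, and the difference of 0.87 (standard error 0.35) had an adjusted p of 0.124 from limma. NFKBIA had a difference of 0.099 (standard error 0.14), and the median of both was 0.48. The second TNF receptor, TNFRSF1B, was not analysed here.

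Other transcripts with AU-rich elements formed a list of 14 genes with the ZFP36 relatives, of which 9 genes with 16 probes were tested. IL6, a cytokine of the acute inflammatory response, was the only one called higher and none was called lower, where 3.53% and 4.87% of all probes were. At an unadjusted p under 0.05, 3 of the 16 probes were higher and 0 lower, against 22.0% and 15.7% of all probes. The IL6 probe was not well above background on any groin array, at 1.38, 3.49 and 3.47. It was so on all 3 body side arrays, at 4.77, 5.37 and 5.27. It was therefore at least 4.73-fold higher in body side skin. The adjusted p of 0.04995 from limma was just under the threshold, and the probe was called in 7 of 17 fits. It entered the fit only through the area where it is high, so its call is a description. With no filter on dim probes or with normexp background correction it was not called. The limit rests partly on groin replicate 1, where this probe was dimmest, and without that array was at least 3.14-fold. IL1B had a difference of 0.36 (SE 0.13, limma adjusted p = 0.097). The list's median was 0.19, against 0.088 over all probes. ZFP36L1 and ZFP36L2 were not analysed here.

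The interferon and CXCR3 list, to which CXCL10 belongs by function, had 8 named genes of 32 and 10 tested probes. None was called (5 higher and 1 lower at an unadjusted p under 0.05, against 22.0% and 15.7% of all probes), 8 had a fitted value above 0, and the median was 0.51, and 0.56 under 75th percentile scaling. Every body side array was higher in 7 of the 10 probes, against 25.6% of all probes. IFNG, a cytokine that induces CXCL10, had 5.18, 5.16 and 4.997 in groin and 5.20, 6.08 and 6.38 in body side skin. As with TNF, replicate 1 of body side skin was level with groin (difference 0.78, standard error 0.31, adjusted p = 0.129 from limma). CXCR3 and CXCL9 were not analysed here.

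The 3 genes named next, induced by interferon and chosen after their values were seen, were highest on replicate 1 of each area. ISG15, a ubiquitin-like protein, had normalized log2 signals of 8.55, 7.75 and 7.77 in groin and 10.75, 8.60 and 8.61 in body side skin. MX2 had 8.94, 8.03 and 8.13 in groin and 10.92, 9.08 and 9.27 in body side skin, and MX1, which like MX2 is an antiviral GTPase, had 11.67, 11.43 and 11.20 in groin and 13.30, 11.67 and 11.52 in body side skin. Their differences of 1.30, 1.39 and 0.73 had adjusted p of 0.185, 0.119 and 0.318 from limma. GNLY was also highest there on both probes, and CXCL10 in groin, while in body side skin its 3 arrays were level. Whether replicate 1 of each area came from the same sheep is not stated.

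**Figure D4:**
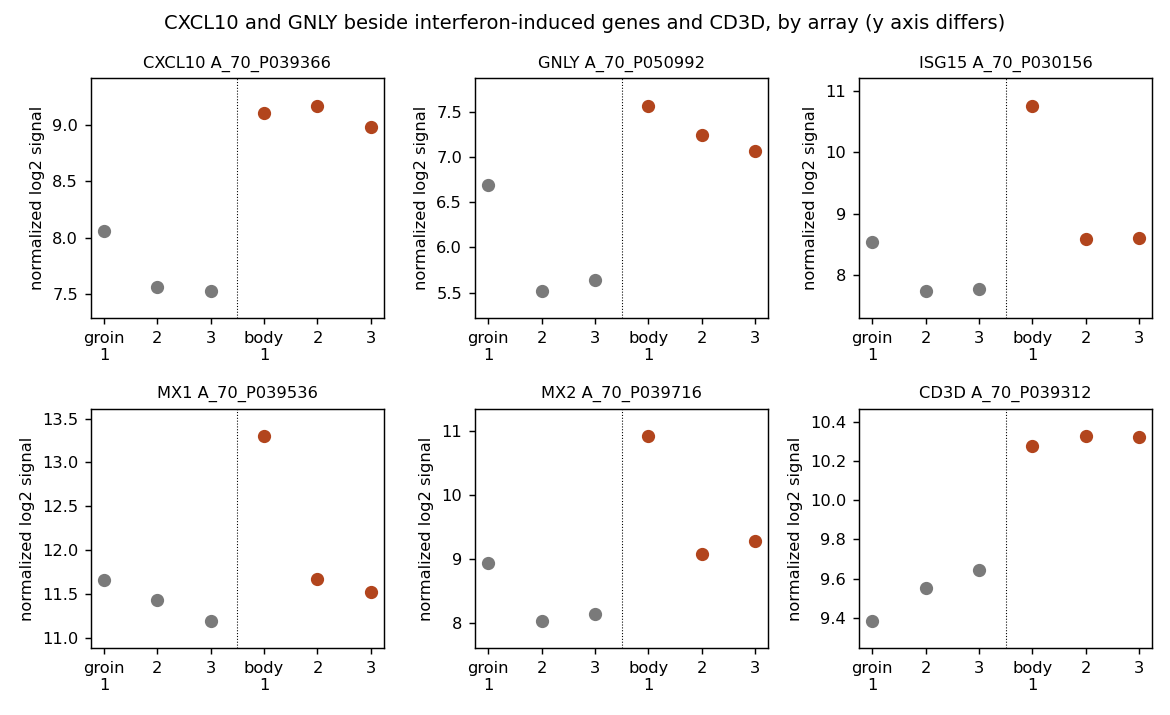
Normalized log2 signal (y axis, a different range in each panel) on each array of groin (grey) and body side skin (red) for CXCL10, a GNLY probe, 3 genes induced by interferon and CD3D. ISG15, MX1 and MX2 peak on body side replicate 1 at 10.75, 13.30 and 10.92, whereas CXCL10 and CD3D are level over the body side arrays. CD3D was chosen after its values were seen. Of the 8 probes tested in the T and NK cell list, 5 had a fitted value above 0 and 3 below.

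Further chemokines and chemokine receptors were represented by 5 genes of 26, with 9 tested probes and 0 called. The 4 higher and 0 lower at an unadjusted p under 0.05 compare with 22.0% and 15.7% of all probes, and 4 of 9 is near the 37.7% in either direction. The median was 0.62, and 0.40 under 75th percentile scaling. One probe of CXCL1, which attracts neutrophils and was chosen after its values were seen, had a difference of 0.78 (standard error 0.18, limma adjusted p = 0.040), under 2-fold, and the other had 0.73. XCL1, a chemokine made by T and NK cells and likewise chosen afterwards, had 7.19, 7.21 and 7.09 in groin and 7.20, 9.11 and 9.03 in body side skin on probe A_70_P039476. Its differences of 1.28 and 1.48 on 2 probes had adjusted p of 0.129 and 0.069 from limma.

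Beside GNLY, the list of cytotoxic and antimicrobial effectors had 8 named genes of 38 and 12 tested probes. The cathelicidin CATHL3, an antimicrobial peptide precursor, was called lower in body side skin and no probe was called higher, where 4.87% and 3.53% of all probes were. Its signals of 13.11, 13.03 and 13.13 in groin and 9.57, 9.96 and 9.99 in body side skin were far apart, a difference of -3.25 (standard error 0.17, adjusted p = 0.002 from limma), or 9.50-fold. It was called in 16 of 18 fits, with the replicate block and slide column as a block as the exceptions. The elastase inhibitor PI3, chosen after its values were seen, had differences of -1.62 and -1.61 on its 2 probes (adjusted p = 0.067 and 0.071 from limma), and its body side replicate 1 was again the nearest to groin. SLPI and SC5, both faint and also chosen after their values were seen, went the other way. SLPI had differences of 1.18 and 1.12 on its 2 probes (adjusted p = 0.262 and 0.257 from limma). SC5 had one of 0.90 (adjusted p = 0.130 from limma). Of the 12 probes, 6 had a fitted value above 0 and 6 below. The list's median was 0.073, and -0.30 under 75th percentile scaling. PRF1 and GZMB, which act with GNLY in cytotoxic granules, were not analysed here.

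**Figure D5:**
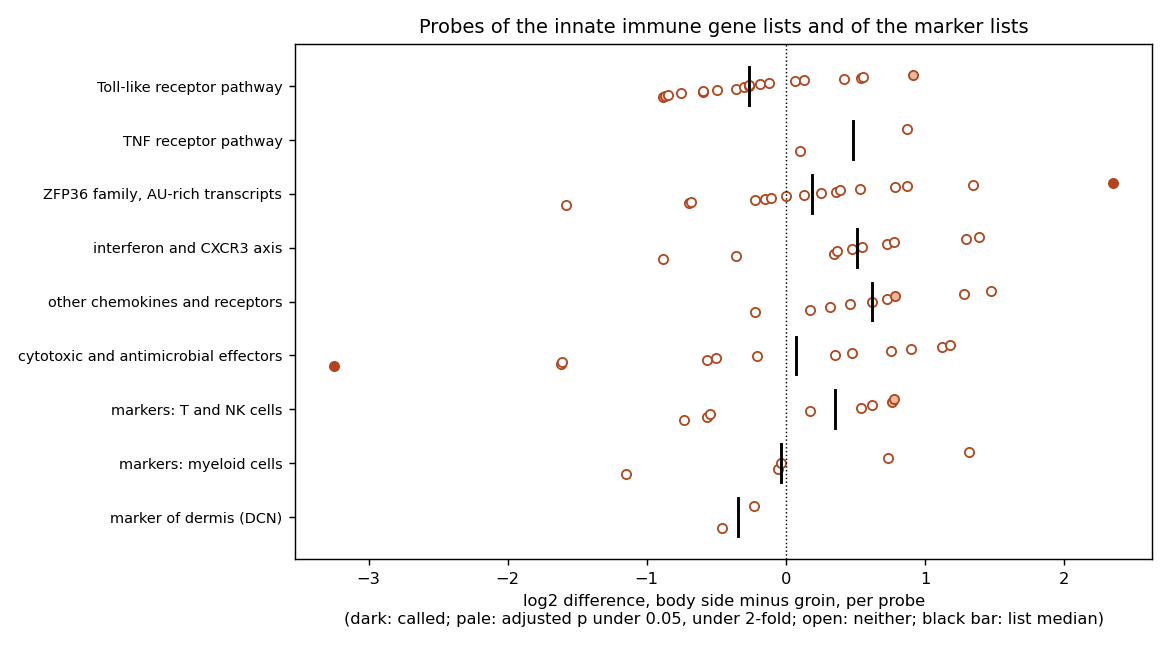
Log2 difference (x axis, body side minus groin) of every tested probe in the gene lists and marker lists (rows); dark circles were called, pale ones had an adjusted p under 0.05 from limma but under 2-fold, open ones had neither, and black bars are medians. Called probes are IL6 on the right and CATHL3 at -3.25 on the left, and the medians run from -0.34 for the 2 probes of DCN, the only dermal marker tested, to 0.62 for other chemokines.

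Markers of T and NK cells, which make GNLY and respond to CXCL10, were set beside these values. Of the T and NK cell list, 6 genes of 21 were named and 5 with 8 probes were tested, with 0 called, against 8.40% of all probes. At an unadjusted p under 0.05, 3 were higher and 0 lower, against 22.0% and 15.7% of all probes. After quantile normalization the summed signal of the list's probes was 3345 to 3799 on the groin arrays and 4689 to 5304 on the body side arrays, and the areas were also apart under 75th percentile scaling. With no scaling they overlapped, at 3906 to 4614 in groin and 4180 to 4757 in body side skin, and the list's median went from 0.35 to -0.25. The bright CD3D and CD3E probes make up most of these sums. None of the tested markers is particular to NK cells. CD3D, a chain of the T cell receptor complex, had 9.39, 9.55 and 9.64 in groin and 10.28, 10.32 and 10.32 in body side skin on probe A_70_P039312 (difference 0.78, standard error 0.14, adjusted p = 0.026 from limma), and its other probe had a difference of 0.76 (adjusted p = 0.036 from limma). CD3E had 0.17 and 0.62, LCK had 0.54 and CD247 had -0.73 and -0.57. CD28 was well above background on groin replicate 1 alone. These T cell genes were described after their values were seen, and their part in the GNLY and CXCL10 values was not tested.

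Of the markers of macrophages, dendritic cells and neutrophils, 3 genes of 15 were tested on 5 probes, with 0 called and a median of -0.032. At an unadjusted p under 0.05, 2 were higher and 1 was lower, against 22.0% and 15.7% of all probes. Their summed signal was 297 to 378 in groin and 382 to 739 in body side skin after quantile normalization, and the areas overlapped under the other scalings. No marker of B and plasma cells was named. For the tissue itself, DCN, a matrix protein of the dermis, was well above background on each array (log2 signals of 16.64 to 17.13 on probe A_70_P030251), with differences of -0.23 and -0.46 that turned to 0.33 and 0.026 under 75th percentile scaling, and keratinocyte markers of the list were not analysed here.

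Over all lists, 83 probes of 52 genes were tested, 1 was called higher and 1 lower, and their median was 0.17. Some of these, among them the probes of TLR8, CCR9, BAC5, VEGFA and CD28, were well above background on groin replicate 1 alone. Their differences count in the list medians and in the numbers of fitted values above or below 0. Over the whole array, 3.53% of probes were called higher and 4.87% lower. At any fold, 5 probes had an adjusted p under 0.05 from limma on the higher side and 3 on the lower side, against 8.11% and 6.76% of all probes. Without body side replicate 1, 10 of the 83 list probes were called higher and 7 lower, where 9.86% and 11.5% of all probes were, so both counts are near the share over the whole array. On the higher side they include TNF at 1.24, IFNG at 1.12, XCL1 at 1.91 and 1.96, a SLPI probe at 1.88 and SC5 at 1.30. Both PI3 probes, at -2.17 and -2.18, are on the lower side.

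Named probes with profiles most like the 5 genes were found by the root mean square difference over the 6 arrays, after each profile's own mean was subtracted. Among 656 candidate probes, both PSMD4 probes were nearest to TNFRSF1A, at 0.080 and 0.098, followed by a PI3 probe at 0.17, where the median over candidates was 1.21. PSMD4 is a ubiquitin receptor of the proteasome. TLR1 was nearest to BRS3, a bombesin receptor, at 0.061, then to CYP4F21 and LOC443348, both at 0.15 (median 0.65). For CXCL10 the nearest were SLC15A1, an intestinal peptide transporter, at 0.12, the plasma protein AHSG at 0.15 and GNLY at 0.24, with a median of 0.76.

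GNLY in turn was nearest to SLC15A1 at 0.13, AHSG at 0.23 and CXCL10 at 0.24 (median 0.83). The second ZFP36 probe was nearest to SLC66A2 at 0.075, and KRT27 lay at 0.083 (median 0.48), both of them nearly flat profiles. The first ZFP36 probe, added after the values were seen, was nearest to FHL1 at 0.55, IGFBP3 at 0.57 and TNFRSF1A at 0.58 (median 1.74). Profiles over 6 arrays share their scaling and the difference between areas, so these distances are a description.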

How the data were processed

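The authors hybridized Cy3-labelled skin RNA to one-colour arrays and extracted spots with Agilent Feature Extraction 10.5.1.1. They deposited each spot's processed signal intensity, which that software had corrected for background, and their own log2 values, quantile normalized according to the methods and used as an alternative here. From the intensities, control and outlier spots were dropped, log2 values were averaged over the spots of a probe, and quantile normalization was applied over the 6 arrays. Detection well above background had to hold for most of a probe's kept spots. Every probe detected so on 1 array or more entered limma 3.58.1 in R 4.3.3, without a block. The fit was tested on simulated data.

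Accessions of 734 probes matched RefSeq's gene table (assembly ARS-UI_Ramb_v3.0), used for names only, so genes reported by unmatched accessions were missed. The 5 genes, the lists and the rule for named genes (all probes of the 5 genes, called list genes, direct partners and the 3 nearest profiles) were chosen with earlier results of these data known. The methods state a slide for each RNA sample, whereas spot positions fall into 3 columns and 2 rows of 1 scan, and this was not resolved. Nothing says that equal replicate numbers mark an animal. Correlations of deviations between areas were 0.13, 0.073 and 0.057 for equal numbers. They were 0.13 between groin replicate 3 and body side replicate 2, and 0.094 between groin replicate 2 and body side replicate 3. Either replicate 1 had -0.119 to -0.089 with replicates 2 and 3 of the other area. Replicates 2 and 3 could thus not be matched by number, and the numbers were not taken as pairs. P-values measure the spread between these arrays. Alternatives changed the scaling, background correction, floor, filter, outliers, weights, blocks, fold threshold and arrays used. Some list genes and a nearest profile are not reported here.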

Additional observations from a re-analysis of the deposited data

How the results depend on the processing

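The calls depended on single arrays and blocks. The 1170 probes called over the whole array became 444 with normexp background correction, 3367 with array weights, 52 with slide row and 0 in limma when slide column was the block (1874 at an unadjusted p under 0.05), 2071 without the fold threshold, and 11 to 2959 with an array left out (11 without groin replicate 3, 2959 without body side replicate 1). Of the 6 probes of the 5 genes, 3 calls became 1 with 75th percentile scaling, 1 with normexp, 5 with array weights, 0 with either slide block and 0 to 5 with an array left out. The count of 1 list probe called higher became 0 with normexp, with no filter on dim probes, with outlier spots kept and with either slide block, 16 with array weights, 5 without the fold threshold and 0 to 10 with an array left out. The count of 1 called lower became 4 with 75th percentile scaling, 3 when all 6 arrays had to be above background, 9 with array weights, 0 with slide column, 3 without the fold threshold and 1 to 7 with an array left out. The other settings stayed within 1.5 times these counts, and the cause of the changes was not tested.

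With the replicate block, though the numbers were not taken to pair the arrays, limma called 8 probes over the whole array (4848 at an unadjusted p under 0.05), 0 of the 6, and 0 list probes higher and 0 lower (22 and 10 at an unadjusted p under 0.05).

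No difference of the 5 genes' probes changed sign. Normexp with its offset brought TNFRSF1A to -0.59, the first ZFP36 probe to -0.51 and TLR1 to 0.26. Of the partners, MYD88 turned to -0.19 with slide column as a block and lay between -0.083 and 0.87 with an array left out, and the faint TLR7 probe turned to -0.49 with 75th percentile scaling and -0.32 with array weights, and lay between -0.12 and 0.38 with an array left out. A block for slide or scan date was not run, since all spots came from 1 scan. Values within slide rows and columns and without scaling, bounds with an array left out and list sums under other scalings were added after seeing the data. Faint signals of TLR1, and of TNFRSF1A and ZFP36 in body side skin, limit those values.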
